A study of Mus musculus with 21 samples.

Results

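Heparanase was followed here through a single oligonucleotide probe, which carries the identifier NM_152803 and was matched by that accession to the mouse gene Hpse in the RefSeq gene table of assembly GRCm38.p6. It is 1 of the 1687 probes of the array and was printed as 8 spots per array. The tissue came from C57Bl/KS-db/+ mice, all female and 9 to 13 weeks old. Every group, intact skin included, was therefore heterozygous for db, a mutant allele of the leptin receptor gene. Back skin of 1.5 by 1.5 cm was excised with the panniculus carnosus, the thin muscle under it, and the wound was covered with a transparent dressing. The 7 groups of 3 arrays were shaved intact skin, the bed of the wound on days 2, 6 and 15 after surgery, and a strip of skin, 2 mm wide, from the edge of the wound on the same days. The labels give 3 animals per time point and leave unsaid whether bed and edge tissue of a day share an animal, so each p-value measures only how these samples spread, which may be technical. Operation-day skin is also named in the labels of the bed samples, which were grouped here by their titles.

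Heparanase is the mammalian enzyme that cuts heparan sulfate, the sulfated sugar chain carried by syndecans, glypicans and matrix proteins such as perlecan. It is made as an inactive precursor that is cleaved to the active form, and cutting the chains loosens basement membranes and frees growth factors that were bound to them. Keratinocytes, platelets, neutrophils, macrophages and endothelial cells are known sources of it. In whole tissue, fewer cells of a type and less RNA per cell cannot be told apart. None of the 22 markers listed for skin, blood, vessel and muscle cells could be matched to a probe by accession, so the tissue labels were not checked against their markers.

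The 8 Hpse spots lie side by side in 1 row of the array, so they share their part of the slide and are not independent samples. On intact skin replicate 1 the mean signals of spots 1 to 8 were 6986, 1030, 1190, 1022, 1064, 958, 1049 and 890 scanner units, over a median local background of 371.5. Spot 1 of that array carries flag 1, was far brighter than its 7 neighbours, and was the only 1 of the 168 Hpse spots over all arrays that was left out. The used spots ran from 890 to 1729 units in intact skin, from 1108 to 4996 in the bed and from 785 to 2377 in the edge. Among the bed arrays of day 6, the lowest, median and highest spots were 2574, 2938 and 3718 units on replicate 1, 1108, 1647 and 2098 on replicate 2, and 2144, 2787 and 4302 on replicate 3. In the edge at day 6 they were 1555, 1808 and 2047 on replicate 1, 1177, 1415 and 1668 on replicate 2, and 1370, 1497 and 1887 on replicate 3. Before any correction, bed replicate 2 of day 6 was therefore dimmer than the other 2 bed arrays of that day and overlapped all 3 edge arrays. It was also the only array on which all 8 Hpse spots carried flag 2, a code that mostly marks dim spots. Over all arrays flag 2 had a median signal of 1.22 times the local background and flag 3 of 4.04 times, while the Hpse spots of this array stood at 3.09 times. Of the 168 spots, 147 carried flag 3.

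**Figure D1:**
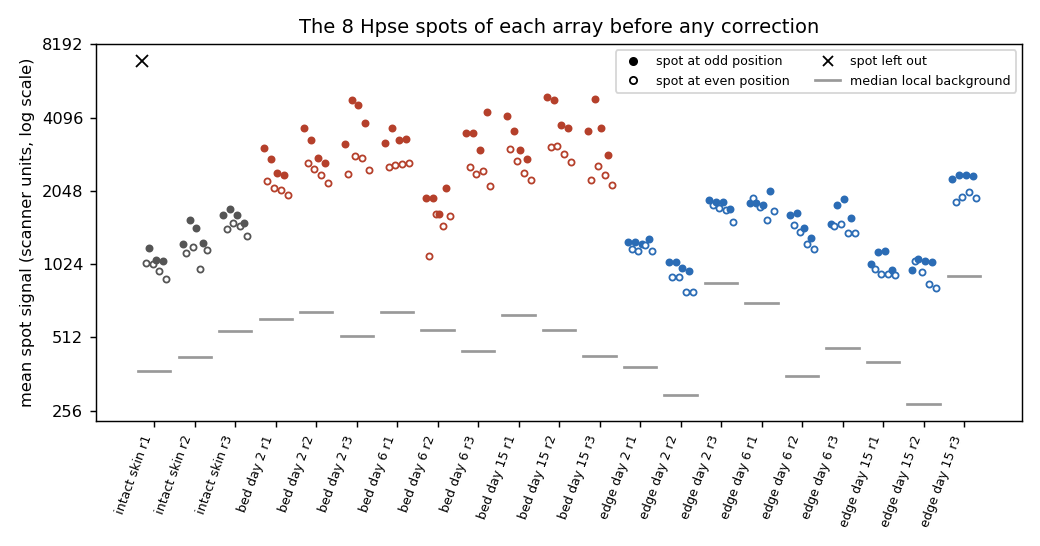
Mean signal of each of the 8 Hpse spots on each of the 21 arrays (vertical axis, scanner units on a log scale), with arrays along the horizontal axis, intact skin in grey, bed in red and edge in blue. Filled points are spots at odd positions, open points spots at even positions, grey bars the median local background of the 8 spots, and the cross the left-out spot at 6986 units; odd spots average higher than even spots on all 21 arrays.

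The mean of the spots at positions 1, 3, 5 and 7 was above that of positions 2, 4, 6 and 8 on all 21 arrays. The median difference was 0.35 on the log2 scale (0.12 to 0.74), though single spots did not all follow this order. Over the 974 probes tested the median of the same difference was 0.17, and 92.4% of them had a smaller one than Hpse. The median difference between odd and even spots was 0.47 on the 9 bed arrays, 0.24 on the 9 edge arrays and 0.23 on the 3 intact arrays. Position 3 was brightest, 0.30 above the mean of its array on average, and position 8 was dimmest, 0.30 below it. The spots of 1 array had a log2 SD of 0.23 in the median (0.08 to 0.46), which gives the mean of 8 spots a median standard error of 0.08. Between the normalized arrays of a group the pooled log2 SD of Hpse was 0.35, against a median of 0.51 over the tested probes. It was uneven: the SD was 0.63 in the bed at day 15 and 0.57 in intact skin, but 0.06 in the bed at day 2, less than the standard error of the spots. In the comparisons below the array, not the spot, is the replicate.

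After background correction and before normalization between arrays, Hpse was brighter than 95% of the blank and empty spots on all 21 arrays. Its distance above that limit was smallest on edge day 2 replicate 3 (0.45 on the log2 scale) and largest on bed day 15 replicate 3 (2.12). On the scale of ranks, Hpse stood at percentile 68.3 to 81.1 of the 1687 probes in intact skin, at 72.7 to 85.4 in the bed and at 69.6 to 74.7 in the edge. The 9 edge arrays thus lay within a narrower band of ranks than the bed arrays.

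The normalized log2 signals in intact skin were 9.95, 11.02 and 10.13 on replicates 1 to 3. Replicate 2 stood alone and high. Before normalization between arrays it read 9.89, between the 9.57 and 10.16 of the other 2 intact arrays. It was among the 3 arrays whose spots were dimmest over their background (1.27 times). On it 541 probes were above the blank spots, against 851 and 696 on the other 2. The bed arrays of day 6 were no better by that count on replicates 2 and 3, with 775, 547 and 487 probes on replicates 1 to 3. In the bed, Hpse read 10.64, 10.74 and 10.64 at day 2, and 11.49, 10.97 and 11.06 at day 6. The bed arrays of day 6 lay above all 3 bed arrays of day 2, as was the case, later day higher, for 12.8% of the 974 tested probes. At day 15 the bed read 10.28, 10.66 and 11.51, a spread of more than 1 log2 unit between replicates 1 and 3. In the edge, the values were 10.25, 10.11 and 10.46 at day 2, 10.22, 10.25 and 10.06 at day 6, and 10.21, 10.24 and 10.41 at day 15. The edge arrays stayed close together at every day.

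**Figure D2:**
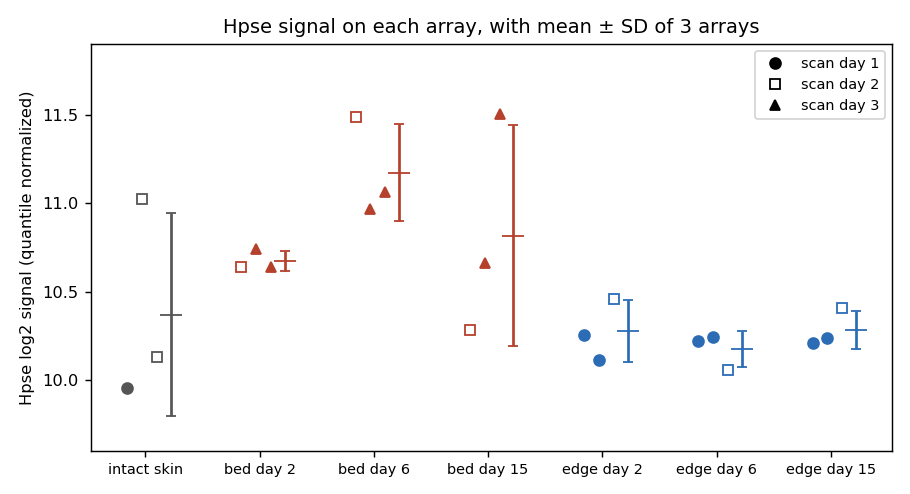
Normalized log2 Hpse signal (vertical axis) of the 3 arrays of each group (horizontal axis), with the mean ± SD beside them and the symbol giving the day on which the array was scanned. The bed arrays of day 6 lie between 10.97 and 11.49, all above the 9 edge arrays, which lie between 10.06 and 10.46, and 1 intact array stands at 11.02.

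In order of mean signal the groups were bed day 6, bed day 15, bed day 2, intact skin, edge day 15, edge day 2 and edge day 6. The 3 bed groups stood above intact skin and the 3 edge groups below it. Every pair of neighbours in this order overlapped in its arrays, and the widest gap between neighbours was 0.36 log2 units, between bed day 6 and bed day 15. Neither neighbour of intact skin was shown to differ from it: bed day 2 was 0.30 above it on the log2 scale (95% interval -0.37 to 0.98) and edge day 15 0.09 below it (95% interval of the edge minus intact difference -0.76 to 0.59).

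In the main fit, averaged over the 3 days, Hpse signal was higher on the wound bed arrays than on the wound edge arrays. The mean of the 3 within-day log2 differences was 0.64, with an SE of 0.19 and a limma adjusted p of 0.0127. This is 1.56-fold (95% interval 1.19 to 2.05), with a mean of 10.89 over the bed groups and 10.24 over the edge groups. Of the 81 pairs of a bed and an edge array, the bed array was the brighter in 79, and the other 2 pairs set bed day 15 replicate 1 (10.28) against edge day 2 replicate 3 (10.46) and edge day 15 replicate 3 (10.41). Of all 974 tested probes 32.8% were called in this comparison, and 66.9% had a smaller absolute difference than Hpse. The exact two-sided permutation test of this 1 value, in which bed and edge labels were exchanged within each day in all 8000 ways, gave p = 5e-04, where 0.00025 is the smallest it can give. That test takes no account of scan day, so its p cannot tell a difference of tissue from one of scan day. With scan day as a block the difference was 0.41 (SE 0.32, adjusted p = 0.572), and with each array scaled to its median 0.39 (SE 0.20, adjusted p = 0.143), so both settings ended the call. The bed and edge arrays share only scan day 2, where the bed array minus the edge array was 0.18, 1.43 and -0.12 at days 2, 6 and 15, a mean of 0.495. The scan day itself had an adjusted p of 0.937 for Hpse in the blocked fit (limma). Most bed arrays were scanned apart from most edge arrays, so this fit separates tissue from scan day only weakly. The SE of the difference was 0.32 in it, against 0.19 in the main fit. No conclusion on scan day is therefore drawn from its p.

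**Figure D3:**
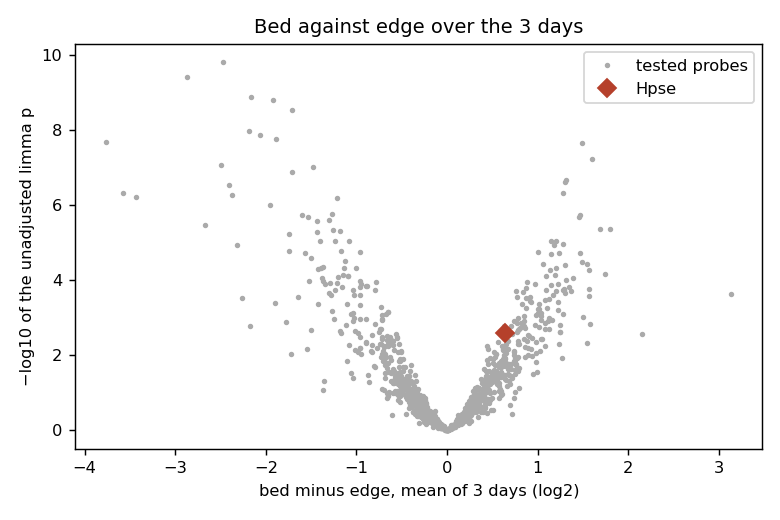
Mean difference between bed and edge over the 3 days (horizontal axis, log2) against the negative log10 of the unadjusted limma p (vertical axis) for the 974 tested probes in grey and Hpse as a diamond. Hpse lies at 0.64 on the side of the bed, within the cloud of probes that differ between the tissues.

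Taken day by day, the difference between bed and edge was called at day 6 only. There Hpse had a log2 difference in favour of the bed of 0.999 with an SE of 0.32 (limma adjusted p = 0.0427), or 2.00-fold (95% interval 1.25 to 3.19), and 16.3% of the tested probes were called in that comparison. All 3 bed arrays lay above all 3 edge arrays, which 13.8% of the tested probes showed in that direction. At day 2 the difference was 0.40 (95% interval -0.28 to 1.07, adjusted p = 0.500), again with no overlap of the arrays, as in 16% of the tested probes, and 8.93% of the probes were called. At day 15 it was 0.53 (95% interval -0.14 to 1.21, adjusted p = 0.334), with 8 of 9 pairs of arrays higher in the bed and 8.21% of the probes called. The day 15 value varied with the bed array left out, and was 0.19 without bed replicate 3 and 0.80 without bed replicate 1. With scan day as a block it was 0.30, and the day 2 value was 0.16. Whether the difference changed with the day was tested itself, and the limma F-test gave an adjusted p of 0.710 for Hpse, with 1.33% of the probes called, so the days were not shown to differ. The day 6 call did not survive scan day as a block (0.76, adjusted p = 0.422) or leaving out any 1 of the 6 arrays (0.84 to 1.10, adjusted p from 0.0528 to 0.114). It was also lost with each array scaled to its median, where the difference fell to 0.46 (adjusted p = 0.3575).

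Each of the 8 spot positions, taken alone, gave a higher bed mean than edge mean at every day. At day 6 the log2 difference ran from 0.57 at position 2 to 1.34 at position 7. At day 2 it ran from 0.17 at position 2 to 0.67 at position 3, and at day 15 from 0.32 at position 8 to 0.91 at position 1. Averaged over the days, the 4 odd positions gave 0.87, 0.88, 0.66 and 0.76, and the even positions 0.38, 0.53, 0.55 and 0.53, so that every odd position exceeded every even one. When 1 position was left out at a time, the difference over the days stayed between 0.61 and 0.69 (adjusted p from 0.00878 to 0.0182). The day 6 call was lost when position 7 was left out (0.93, adjusted p = 0.0544). Bed replicates 2 and 3 of day 6 had their brightest spots there, at 2098 and 4302 units.

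**Figure D4:**
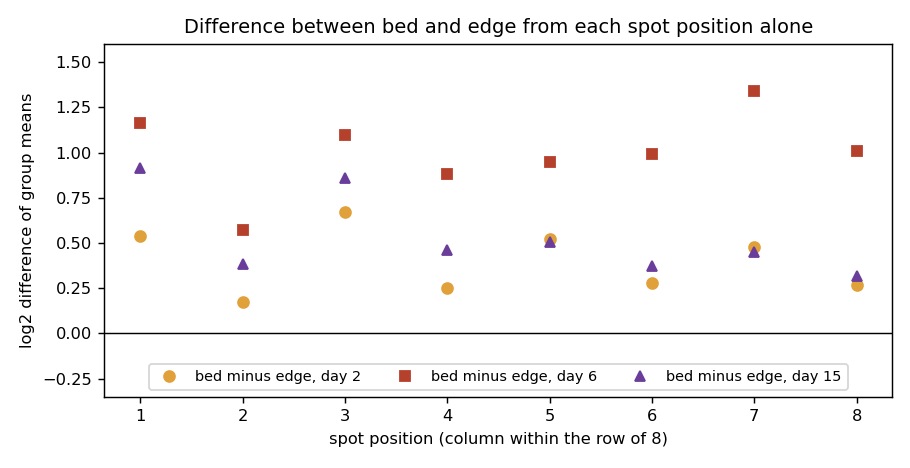
Log2 difference between the mean of the 3 bed arrays and the mean of the 3 edge arrays (vertical axis) computed from each of the 8 spot positions alone (horizontal axis), for days 2, 6 and 15. All points lie above 0, between 0.17 and 1.34, and the day 6 point is the highest at every position.

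Against intact skin, the bed showed no called difference. At day 6 the log2 difference in favour of the bed was 0.80 (SE 0.32, 95% interval 0.13 to 1.48, limma adjusted p = 0.0858), with 8 of 9 pairs of arrays higher in the bed and 19.3% of the tested probes called. Without intact replicate 2, the high and dim array described above, it was 1.13 and passed the threshold (adjusted p = 0.0272). Of the 3 arrays dimmest over their background, only intact replicate 2 enters this comparison. Leaving out all 3 gave the same 1.13 (adjusted p = 0.0287). With array quality weights the difference was 0.89 (adjusted p = 0.0456). Those weights were 0.762, 1.11 and 0.88 for intact replicates 1 to 3, so intact replicate 2 was not weighted down. For bed replicates 1 to 3 of day 6 they were 1.34, 0.178 and 0.528, and 0.178 was the lowest of all 21 arrays. Among the settings that made it smaller, scaling each array to its median gave 0.39 (adjusted p = 0.4465) and a scan day block gave 0.64 (adjusted p = 0.3565). Leaving out intact replicate 1 or 3 gave 0.60 and 0.68 (adjusted p = 0.277 and 0.25). At day 2 the difference was 0.30 (adjusted p = 0.656, 8.52% of probes called) and at day 15 it was 0.45 (adjusted p = 0.408, 12% of probes called). Over the 3 days together it was 0.52 (SE 0.26, adjusted p = 0.193, 17.7% of probes called), with 21 of 27 pairs higher in the bed. Leaving out 1 array moved the day 2 value to 0.09 (without intact replicate 1) or 0.63 (without intact replicate 2). The day 15 value moved to 0.10 without bed replicate 3 and to 0.77 without intact replicate 2. The value over the days moved to 0.31 without intact replicate 1 and to 0.84 without intact replicate 2, and none of these was called. On scan day 2, the only one that bed and intact arrays share, the 3 differences were 0.06, 0.91 and -0.29. Each sets a single bed array, replicate 1, against the mean of intact replicates 2 and 3, the high array among them.

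The edge was not shown to differ from intact skin at any day. Its log2 differences were -0.10, -0.20 and -0.09 at days 2, 6 and 15 (limma adjusted p = 0.957, 0.904 and 0.963), where 0.411%, 1.44% and 1.85% of the tested probes were called. The 95% intervals reached from -0.77 to 0.58, from -0.87 to 0.48 and from -0.76 to 0.59, so levels in the edge from 0.547 to 1.50 times those of intact skin lie within them. Over the days it was -0.13 (SE 0.26, adjusted p = 0.870, 3.08% called). The direction turned when intact replicate 2 was left out, to 0.23, 0.13 and 0.24 at the 3 days and 0.20 over them, none of them called. Arrays of scan day 1 gave 0.23, 0.28 and 0.27, against a single intact array, and those of scan day 2 gave -0.12, -0.52 and -0.17. The scan day 2 values each set a single edge array, replicate 3, against the mean of intact replicates 2 and 3.

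Between consecutive days, Hpse was called in neither tissue. In the bed it was 0.50 higher at day 6 than at day 2 (95% interval -0.17 to 1.17, limma adjusted p = 0.348, 6.47% of probes called) and 0.36 lower at day 15 than at day 6 (95% interval -1.03 to 0.32, adjusted p = 0.705, 0.719% called). The later step was -0.70 without bed day 15 replicate 3 and -0.09 without replicate 1 of that day, and the earlier one was 0.10 with each array scaled to its median. The arrays of scan day 3 gave 0.33 and 0.07 for the same steps, and those of scan day 2, 1 per group, gave 0.84 and -1.20. In the edge the steps were -0.10 and 0.11 (adjusted p = 0.998 and 0.9999, with 0.616% of probes called in each). Of the 16 comparisons of groups in all, Hpse was called in 2, the bed against the edge at day 6 and over the days.

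The choice of scale moved the size of the difference between bed and edge. Hpse stood 1.04 log2 units above the median tested probe in that comparison at day 6 with quantile normalization, where the median probe itself was at -0.04. With the 75th percentile as the scale Hpse was at 0.93 and the median probe at 0.10, and with the median as the scale Hpse was at 0.46 and the median probe at -0.37, and the distance between them was 0.82 in both, which scales of 1 constant per array leave equal by construction. Without any normalization between arrays, a setting chosen after the data were seen, Hpse was 1.185 higher in the bed over the days. The median probe was also higher there, by 0.60. Against intact skin at day 6 that setting put Hpse 1.14 higher in the bed and the median probe 0.46 higher, a distance of 0.68. With quantile normalization the same distance was 0.82. The authors' deposited table put Hpse at a scaled log score of 1.21 ± 0.04 (SD, n = 3) in the day 6 bed and 1.12 ± 0.02 in the day 6 edge, and its score over the days was higher in the bed by 0.0661 (limma adjusted p = 0.0214). In that table the bed at day 15 (1.20 ± 0.07) was level with day 6, and intact skin read 1.13 ± 0.06.

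**Figure D5:**
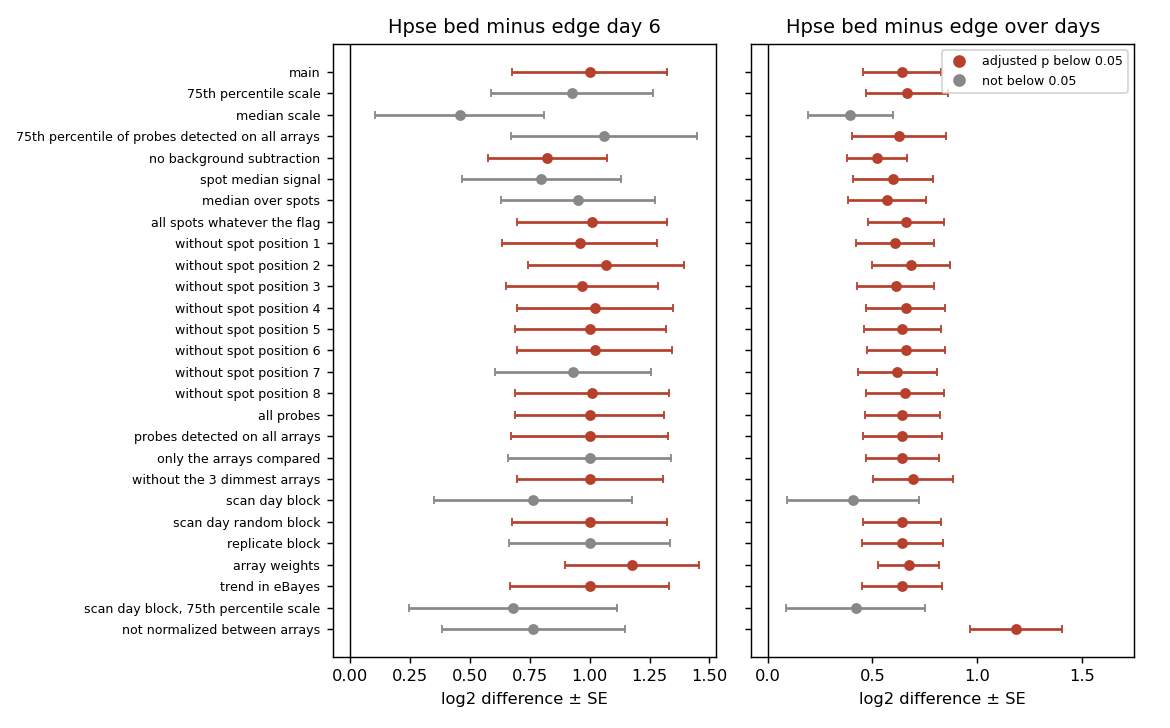
Log2 difference of Hpse between bed and edge ± SE (horizontal axis) under each processing setting (vertical axis), at day 6 on the left and averaged over the 3 days on the right, red where the limma adjusted p is below 0.05. All values lie above 0, between 0.46 and 1.18 at day 6 and between 0.39 and 1.185 over the days, and the grey points of the right panel are the median scale and both fits with scan day as a block.

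The probes whose pattern over the 21 arrays was most like that of Hpse carry catalogue identifiers that the files do not pair with a gene. M200000955 had a Pearson r of 0.85 with Hpse and M200000294 of 0.84, the highest of 973 tested probes, of which 8 exceeded 0.8. The arrays share their normalization, and no p is given for the best of so many. M200000955 had its highest mean in the bed at day 6 (log2 signal 11.80 ± 0.61, SD, n = 3) and its lowest in the edge at day 6 (9.98 ± 0.37), the same extremes as Hpse. The most opposite were M200001106 with r of -0.90 and M200000939 with r of -0.80. They were above the limit set by the blank spots on 19 and 17 of the 21 arrays, and not on the rest. M200001106 read 9.79 ± 0.45 in the bed at day 6 against 11.48 ± 0.05 in the edge. By rank correlation the same 2 probes led, at 0.86 each, while with the 75th percentile scale M200000901 led at 0.85 and with the deposited table also, at 0.86.

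Of the 45 genes listed for making, carrying, trimming and cutting heparan sulfate, the accessions of the array matched 2, Hpse and Ndst3. Ndst3 encodes an enzyme that replaces acetyl groups of the chain with sulfate, and its probe stayed below the limit set by the blank spots on all 21 arrays. Fbln1, which encodes the matrix protein fibulin-1, was the third probe with a symbol. It was above the blank spots on 18 arrays, was called in none of the 16 comparisons with limma (0 at an unadjusted p below 0.05), and followed Hpse with an r of 0.08 over the 21 arrays. Its mean was highest in the bed at day 15 (10.90 ± 0.62), not at day 6 (10.28 ± 1.25).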

How the data were processed

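The authors deposited, per the file headers, the image analysis of a 532 nm scan (software version 4.1, automatic segmentation) with a spot intensity, a local background and a flag from 0 to 3 (a code, another kind of value, whose meaning is not given in the sources used here). They also deposited a table with 1 scaled log score per probe. Rebuilding it as the log of the mean signal of the spots without flag 1, shifted to a median of 1 and scaled to an SD of 0.2 within each array, left differences of at most 0.00119.

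From the intensity of 13824 spots per array, background was corrected by normexp (offset 50, limma 3.58.1, R 4.3.3), log2 values were averaged over a probe's spots without flag 1, and arrays were quantile normalized, which hides a shift of most probes. Probes above the 95th percentile of the 328 blank or empty spots on at least 3 arrays were tested (974). One limma model with 7 group means (14 residual degrees of freedom) gave every contrast, with p-values two-sided and adjusted (Benjamini-Hochberg) over the 974 probes, called below 0.05. Scan days come from image names in the headers: day 1 held intact 1 and edge 1 and 2, day 2 intact 2 and 3, bed 1 and edge 3, day 3 bed 2 and 3. The probe, lists, rules and tests were chosen with earlier results of these data known. Named probes are the 2 highest and 2 lowest in Pearson r with Hpse, those matched to a symbol, and M200000901, added after its value was seen. No published heparanase results were used here.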

Additional observations from a re-analysis of the deposited data

Results flagged for a closer look

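At day 6 all 3 bed arrays lay above the mean of intact skin for Hpse and all 3 edge arrays below it, although neither tissue passed the test against intact skin (bed 0.80, limma adjusted p = 0.0858, and edge -0.20, adjusted p = 0.904). The difference between these 2 values, bed minus edge, was 0.999 on the log2 scale (limma adjusted p = 0.0427), and with scan day as a block it was 0.76 and not called (adjusted p = 0.422). The intact arrays cancel in this difference. In that comparison 16.3% of the 974 tested probes were called, and 13.8% had all 3 bed arrays above all 3 edge arrays. The share of probes with bed and edge on opposite sides of intact skin was not counted. Without intact replicate 2 the edge at day 6 lay above intact skin by 0.13, so among the normalized values the opposite sides rest on that array. They also rest on the normalization between arrays. Before it, the mean of all 3 intact arrays was 9.875, with the day 6 edge at 10.25 and the day 6 bed at 11.02, both above it.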

How the results depend on the processing

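The difference of Hpse between bed and edge averaged over the days stayed higher in the bed under all 45 alternatives and past the threshold (limma) in 42 of them, the exceptions being the median scale (0.39), scan day as a block (0.41), and the block with the 75th percentile scale (0.42), which was added after the data were seen. Leaving out any 1 of its 18 arrays, which makes up 18 of the 45, gave 0.53 to 0.73 (adjusted p from 0.00514 to 0.0285). Another 8 left out 1 spot position each. Both kinds share nearly all their data with the main fit and do not adjust for scan day. Its exact permutation p ranged from 5e-04 to 0.033 over 8 settings. The call at day 6 was lost in 18 of 33 alternatives: the 75th percentile scale (0.93), the median scale (0.46), the 75th percentile of the probes detected on all arrays (1.06), the deposited table (0.0847 on its own scale), the median signal of a spot (0.80), the median over spots (0.95), no spot at position 7 (0.93), only the arrays compared (0.999), scan day as a block (0.76), the block with the 75th percentile scale (0.68), no normalization between arrays (0.765), the replicate block (0.999, adjusted p = 0.0543), and without each of the 6 arrays (0.84 to 1.10). Its adjusted p ranged from 0.00871 to 0.502. The bed against intact skin at day 6 became a call without intact replicate 2 (0.60 to 1.13 over the arrays left out). It also did with array weights (0.89) and without the 3 dimmest arrays (1.13), of which only intact replicate 2 enters here. Without normalization between arrays it was called at day 6 (1.14), and so was the value over the days (1.32). At day 6 the median probe was then 0.46 higher too. Values that turned their sign were those of the edge against intact skin and 2 steps between days, none of them called. Without the 3 dimmest arrays the edge stood at 0.14, 0.13 and 0.18 at days 2, 6 and 15 and at 0.15 over the days. At day 15 it was 0.075 with the median scale and 0.0143 with the deposited table. Without 1 array it ran from -0.30 to 0.23, from -0.40 to 0.13, from -0.29 to 0.24 and, over the days, from -0.33 to 0.20. The bed from day 6 to day 15 was 0.074 with the median scale, and the edge from day 2 to day 6 was 0.001 with the deposited table. In all these the cause was not tested.

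The number of probes called between bed and edge at day 6 went from 159 to 18 with scan day as a block, to 44 with only the arrays compared and to 116 with the replicate block, and over the days from 319 to 59 with scan day as a block. The replicate numbers were not used to pair the arrays in the main fit, as the labels do not tie them to animals. The deviations of same-numbered arrays correlated from -0.409 to 0.604 over 63 pairs, with 13 above 0.1. Of the 21 arrays, 6 correlated best with their own number. With 3 arrays a group, these values cannot settle whether same-numbered arrays share an animal. The replicate block changed no other call of Hpse. Spots with flag 0 alone were not run, as Hpse has them on 2 arrays. With 3 arrays a group, an exact test of 1 day cannot give a p below 0.1.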
